A study of Mus musculus with 38 samples.

Results

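Atrial identity genes are transcripts that the muscle of the atria makes in abundance and that the adult ventricle keeps low. Described here are Myl4, Myl7, Sln, Bmp10 and Dkk3, chosen by name, which are 5 of the 29564 genes in the expression tables. They were picked for their known place in atrial muscle, and each was described in every library and across the groups, including whether the 5 genes rise and fall together from heart to heart. RNA-seq was done on left ventricle tissue of 38 mice, 1 library per mouse, all C57BL6 with a WT genotype. The non_failing group (n = 8) received vehicle. HFpEF, heart failure with preserved ejection fraction, was modelled with a high-fat diet and L-NAME, which blocks nitric oxide synthesis, and these mice were given vehicle (HFpEF+Veh, n = 8), TYA-018, an inhibitor of the deacetylase HDAC6 (HFpEF+TYA-018, n = 11), or the SGLT2 inhibitor Empagliflozin (HFpEF+SGLT2i, n = 11). Diet and L-NAME were given together, so their separate effects cannot be told apart. The labels call the mice female while the methods of the study describe males, and all 38 libraries held Y-linked transcripts.

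Atrial and ventricular muscle build the same contractile machine from partly different parts. Each myosin head carries an essential and a regulatory light chain; the atrium uses Myl4 and Myl7 where the ventricle uses Myl3 and Myl2. The calcium pump of the sarcoplasmic reticulum is restrained in atrial muscle by sarcolipin (Sln) beside phospholamban (Pln), and sarcolipin is also made in skeletal muscle. Bmp10 is a ligand secreted by atrial muscle that acts on endothelial cells through the receptor ALK1 (Acvrl1) and its partner endoglin (Eng), and hepatic stellate cells make it too. Dkk3 is a secreted glycoprotein of the Dickkopf family that is present in atrial muscle and in mesenchymal cells such as fibroblasts.

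The genes lie at 5 places in the GRCm38 genome and are all annotated as protein-coding. Myl4 spans chr11:104550663-104595753 on the plus strand and Myl7 chr11:5896637-5898782 on the minus strand, so the pair of atrial light chains shares a chromosome but not a neighbourhood. Sln spans chr9:53850164-53854560 (plus), Bmp10 chr6:87428994-87437677 (plus) and Dkk3 chr7:112116017-112159057 (minus). Promoter sequences from RefSeq (GRCm38.p6; 250 bases before to 50 after the start) matched 3 of the 5 genes. They are shown because Myl4 and Myl7 varied between libraries together with Sln, while Bmp10 was higher in all HFpEF groups. Capitals mark the CArG box, the site of serum response factor, and the GATA motif AGATAA, both searched on either strand.
Myl4 (chr11:104550413-104550712, plus): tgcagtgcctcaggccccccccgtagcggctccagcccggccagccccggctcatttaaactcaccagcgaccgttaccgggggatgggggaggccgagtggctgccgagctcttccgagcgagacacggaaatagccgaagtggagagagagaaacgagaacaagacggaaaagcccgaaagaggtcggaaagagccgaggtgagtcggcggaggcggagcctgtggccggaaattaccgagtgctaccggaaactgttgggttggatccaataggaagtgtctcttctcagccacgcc
Myl7 (chr11:5898733-5899032, minus): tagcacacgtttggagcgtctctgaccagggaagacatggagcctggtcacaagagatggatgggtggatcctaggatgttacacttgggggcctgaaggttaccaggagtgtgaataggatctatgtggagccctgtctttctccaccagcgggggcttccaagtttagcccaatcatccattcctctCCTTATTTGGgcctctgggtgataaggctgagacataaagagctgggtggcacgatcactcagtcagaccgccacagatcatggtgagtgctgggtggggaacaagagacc
Bmp10 (chr6:87428744-87429043, plus): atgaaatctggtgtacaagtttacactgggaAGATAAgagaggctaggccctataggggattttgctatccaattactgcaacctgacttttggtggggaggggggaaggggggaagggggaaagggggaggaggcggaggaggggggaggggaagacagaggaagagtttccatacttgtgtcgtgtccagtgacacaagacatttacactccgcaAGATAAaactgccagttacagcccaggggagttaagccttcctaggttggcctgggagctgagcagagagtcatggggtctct

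The Myl7 window held 1 CArG box, which ends 51 bases before the start, and 1.63% of the 32851 promoter windows of that length hold such a box. The Bmp10 window held 2 copies of AGATAA, and 11.2% of windows hold at least 1. Neither motif was in the Myl4 window. The T-box core AGGTGT (13.7% of windows), the nuclear receptor element AGGTCA (16.3%) and the MEF2 site (0.557%) were in none of the 3, and the E-box CANNTG (72.3%) was in Myl7 alone. The searched motifs did not overlap one another in these windows. A match describes letters in a window and is not evidence of binding.

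Libraries held 21.5 to 59.3 M counts (M stands for 1000000), and 13765 genes had enough counts to be tested. Labelled ventricle tissue had the ventricular light chains among its most abundant transcripts: the median over 38 libraries was 9760 TPM (transcripts per 1000000, a level corrected for transcript length and depth) for Myl2 and 3990 TPM for Myl3. Some libraries, and the non_failing group as a whole, carried transcripts of other tissues. All 8 non_failing libraries were among the 10 highest for hepatocyte markers, at 35.9 to 296 TPM (V2504), while the drug groups held 8.35 to 28.7 TPM. HFpEF+Veh V2523 had a summed level of 1160 TPM for hepatocyte markers, against a median of 26.5 TPM in its group, and HFpEF+Veh V2532 had 126 TPM for skeletal muscle markers against 55.9 TPM. Mesothelial markers were highest in V2523 and non_failing V2502 (49.8 and 30.6 TPM, against medians of 6.61 and 5.96 TPM). Values of Bmp10 without V2523 and of Atp2a1 without V2532 are given beside those results. In bulk tissue, fewer cells of a type and less RNA per cell cannot be told apart.

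On the length-corrected TPM scale all 5 genes were low. The order of their median levels was Myl4 (2.18 TPM), Dkk3 (0.694), Myl7 (0.349), Bmp10 (0.0483) and Sln (0.0243). Myl4 and Dkk3 had counts in 38 of 38 libraries, Myl7 and Bmp10 in 36 each and Sln in 24. The summed counts over all libraries were 2972 for Myl4, 3051 for Dkk3, 491 for Myl7, 335 for Bmp10 and 106 for Sln, so single counts weigh most in Sln and Bmp10. Relative to the ventricular partner, the group medians of Myl4 were 0.0453 to 0.0674% of the TPM of Myl3, those of Myl7 0.00119 to 0.0098% of Myl2, and those of Sln 0.00196 to 0.00264% of Pln. Nppa, the atrial natriuretic peptide gene, which the ventricle also makes, was far higher at a median of 114 TPM.

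**Figure D1:**
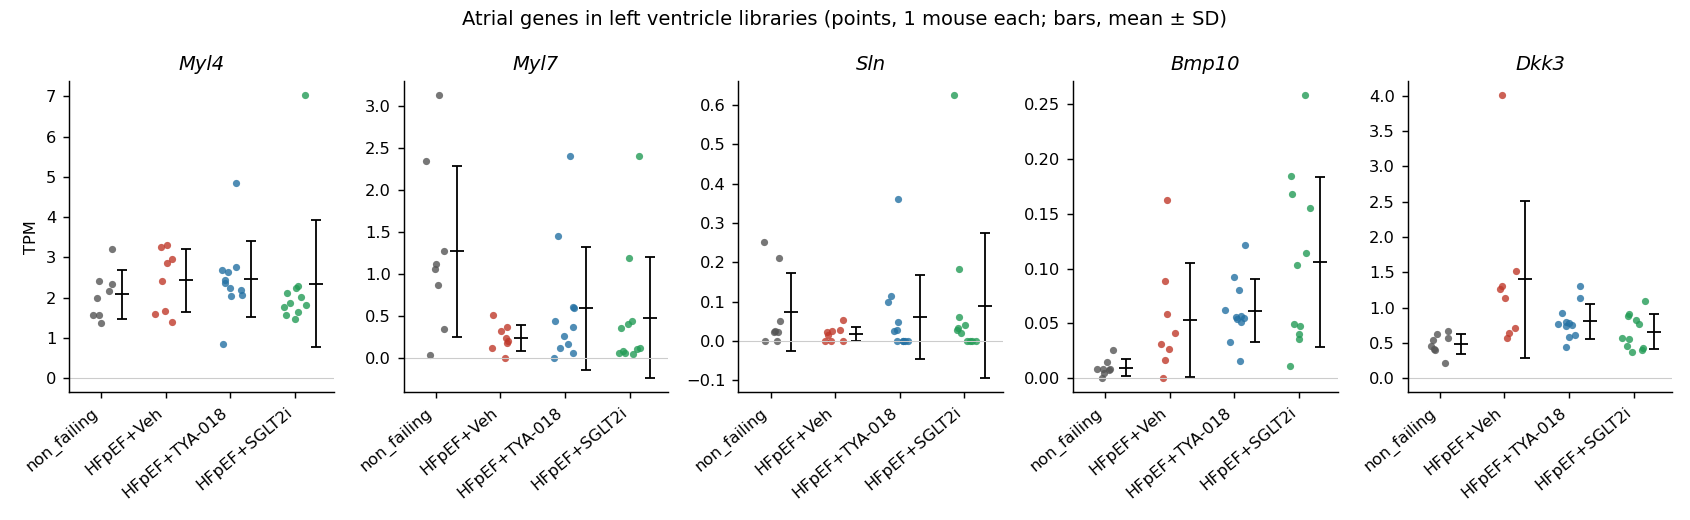
TPM of each gene in each library (points) by group, with the group mean ± SD beside them; each panel has its own linear scale. Bmp10 is lowest in non_failing, Myl7 tends to be highest there, and single libraries such as V2573 for Myl4 and Sln and V2530 for Dkk3 stand far above their groups.

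For Myl4, the atrial essential light chain, no difference between the 4 groups was detected. Its lowest, median and highest values were 1.38, 2.08 and 3.21 TPM in non_failing and 1.39, 2.64 and 3.32 TPM in HFpEF+Veh. They were 0.851, 2.37 and 4.86 TPM in HFpEF+TYA-018 and 1.47, 1.88 and 7.03 TPM in HFpEF+SGLT2i. The groups overlapped throughout, and the highest values of the drug groups were each 1 mouse, V2559 and V2573. HFpEF+Veh exceeded non_failing by 0.14 ± 0.27 on the log2 scale (SE; edgeR quasi-likelihood test, adjusted p = 0.842). The drug groups exceeded HFpEF+Veh by 0.21 ± 0.25 (TYA-018, adjusted p = 0.7) and 0.12 ± 0.25 (Empagliflozin, adjusted p = 0.908), and without V2573 the latter difference was -0.17. None of the 6 comparisons passed the threshold for Myl4.

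Myl7, the atrial regulatory light chain, had its highest median in non_failing and varied widely in every group, and no comparison passed with edgeR. In non_failing libraries its counts ran from 1 (V2508) through a median of 20.5 to 69 (V2503), or 0.0316, 1.08 and 3.13 TPM. In HFpEF+Veh they ran from 0 through 4.5 to 13, or 0, 0.209 and 0.502 TPM. All 8 HFpEF+Veh libraries lay below the mean of non_failing, though the ranges overlapped: V2508 was among the lowest of all, and V2509 (0.343 TPM) lay below V2530 and V2532 of HFpEF+Veh (0.502 and 0.361 TPM).

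The difference between these groups for Myl7 was -2.46 ± 0.80 on the log2 scale, which did not pass after adjustment (p = 0.00376, adjusted p = 0.084, edgeR). Its adjusted p ranged from 0.0539 to 0.18 when single libraries were left out and from 0.0378 to 0.162 under the other settings, and DESeq2 was the 1 setting that called it (-2.51, adjusted p = 0.0378). In HFpEF+TYA-018 the lowest, median and highest counts were 0, 9 and 68 (V2559), and in HFpEF+SGLT2i 1, 4 and 38 (V2572). Against non_failing these groups differed by -1.0 ± 0.67 (adjusted p = 0.408) and -1.47 ± 0.69 (adjusted p = 0.222). The first difference was -1.59 without V2559 (adjusted p = 0.156) and -0.71 without V2503 (adjusted p = 0.646). Without the single library V2572 the second difference was -2.26 with an adjusted p of 0.0373. Against HFpEF+Veh the drug groups differed by 1.46 ± 0.76 (TYA-018, adjusted p = 0.314) and 0.99 ± 0.77 (Empagliflozin, adjusted p = 0.71). These became 0.88 without V2559 and 0.20 without V2572.

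Sln, the small peptide that slows the calcium pump, was at or near the limit of detection. The median was 1 count in each of the 4 groups. The highest library held 9 counts in non_failing (V2510, with 8 in V2504), 2 in HFpEF+Veh (V2521), 21 in HFpEF+TYA-018 (V2559) and 29 in HFpEF+SGLT2i (V2573). A count of 0 was found in 2, 3, 5 and 4 libraries of these groups; a count of 0 allows up to 3 counts, or 0.0621 counts per 1000000 (CPM) in V2508, for example. Sln did not pass the filter on low counts, so its differences come from a fit of all 21871 genes with a count. HFpEF+Veh minus non_failing was -1.88 ± 1.11 (adjusted p = 0.445) and HFpEF+SGLT2i minus HFpEF+Veh was 2.26 ± 1.05 (p = 0.0388, adjusted p = 0.391). TYA-018 minus vehicle was 1.87 ± 1.05 (adjusted p = 0.378), and these drug differences were 0.87 without V2559 and 0.97 without V2573. Against non_failing the drug groups were at -0.01 ± 1.23 (TYA-018) and 0.38 ± 0.92 (Empagliflozin), and at -1.01 without V2559 and -0.92 without V2573. Of these 4 differences, that between HFpEF+SGLT2i and non_failing changed direction without its highest mouse, and those with HFpEF+Veh kept theirs. Skeletal muscle is another source of Sln. Summed over 11 skeletal muscle markers without Myl1, V2532 was the highest of all libraries at 62.2 TPM, and it held 1 count of Sln. V2559 and V2573 had 4.67 and 3.49 TPM of these markers, against medians of 3.04 and 3.49 TPM in their groups; the part of skeletal muscle in their Sln values was not tested.

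Bmp10 had higher levels in each of the 3 HFpEF groups than in non_failing. The non_failing libraries held 0, 1 and 3 counts as lowest, median and highest (0, 0.0081 and 0.0255 TPM). The HFpEF+Veh libraries held 0 (V2529), 4.5 and 23 (V2523), the HFpEF+TYA-018 libraries 2, 7 and 17, and the HFpEF+SGLT2i libraries 2, 12 and 32. The ranges overlapped in each case. V2510, the highest non_failing library, lay above V2529 and V2530 of HFpEF+Veh, V2550 of HFpEF+TYA-018 and V2563 of HFpEF+SGLT2i. V2509 of non_failing also lay above V2563, and 7 of 8 non_failing libraries lay above V2529, which had 0 counts. Summed over the libraries of a group, the level was 0.0386 CPM in non_failing (10 counts; exact 95% Poisson interval 0.0185 to 0.071, which covers counting error only). It was 0.257 (0.199 to 0.326) in HFpEF+Veh, 0.27 (0.218 to 0.33) in HFpEF+TYA-018 and 0.426 (0.363 to 0.496) in HFpEF+SGLT2i.

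The fitted increase of Bmp10 over non_failing was 2.38 ± 0.63 on the log2 scale in HFpEF+Veh (adjusted p = 0.0252, edgeR), with 7 of 8 libraries above the non_failing mean. It was 2.69 ± 0.60 in HFpEF+TYA-018 (adjusted p = 0.00359) and 3.39 ± 0.59 in HFpEF+SGLT2i (adjusted p = 0.00024), with 11 of 11 libraries above in each. Bmp10 could pass the filter on low counts only through the HFpEF libraries, and the 3 comparisons share the same 8 non_failing libraries. In the fit of all 21871 genes with a count, made without that filter, the increases were 2.35 ± 0.61 (adjusted p = 0.0329), 2.67 ± 0.59 (adjusted p = 0.00454) and 3.38 ± 0.59 (adjusted p = 0.000379), where 1.91, 4.46 and 4.15% of all genes were called. The rise in HFpEF+Veh was the least firm. It lost its call when V2523, V2503, V2504 or V2508 was left out, with adjusted p-values of 0.0644, 0.0606, 0.0503 and 0.0592, while the increase was 1.95, 2.18, 2.35 and 2.25. V2523 also had the highest hepatocyte marker level, and without V2523 and V2532 together the increase was 1.53 (adjusted p = 0.146). On the log2(TPM + 0.1) scale with limma it was 0.59 (adjusted p = 0.192), a scale that understates changes of low genes. Hepatocyte markers reached at most 28.7 and 26.3 TPM in the drug groups, against a non_failing median of 73.7 TPM; these markers do not measure hepatic stellate cells, and the part of liver RNA in the Bmp10 values was not tested. With the filter, both drug groups were called in 38 of 38 fits that left out 1 library. That count is a description only, because Bmp10 passed the filter through the libraries in which it was high. Between HFpEF groups Bmp10 passed no test: TYA-018 differed from vehicle by 0.31 ± 0.48 (adjusted p = 0.774), Empagliflozin from vehicle by 1.01 ± 0.47 (p = 0.0388, adjusted p = 0.456) and TYA-018 from Empagliflozin by -0.70 ± 0.42 (adjusted p = 0.507).

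Dkk3 rose in HFpEF hearts given vehicle. Its lowest, median and highest values were 0.212, 0.494 and 0.671 TPM in non_failing and 0.574, 1.2 and 4.01 TPM (V2530) in HFpEF+Veh, and all 8 HFpEF+Veh libraries lay above the non_failing mean. The ranges overlapped only between 0.574 and 0.671 TPM. The increase was 1.44 ± 0.30 on the log2 scale (adjusted p = 0.00444, edgeR), and 0.98 without V2530 (adjusted p = 0.0264). It was called in 38 of 38 fits that left out 1 library. Fibroblast markers leaned the same way: 6 of 7 had higher values in HFpEF+Veh (median log2 change 0.28), and 2 were called, Lum (0.86 ± 0.17, adjusted p = 0.0019) and Pdgfra (0.33 ± 0.08, adjusted p = 0.0123). Their summed level was 184 to 289 TPM in non_failing and 259 to 609 TPM in HFpEF+Veh; the part of fibroblasts in the Dkk3 result was not tested.

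In the drug groups Dkk3 lay between non_failing and HFpEF+Veh. The lowest, median and highest values were 0.437, 0.775 and 1.3 TPM in HFpEF+TYA-018 and 0.37, 0.563 and 1.09 TPM in HFpEF+SGLT2i. Against vehicle Dkk3 differed by -0.70 ± 0.27 with TYA-018 (adjusted p = 0.165) and by -1.01 ± 0.27 with Empagliflozin (p = 0.000711, adjusted p = 0.0717), so neither passed. In both drug groups all 11 libraries lay below the mean of HFpEF+Veh, a mean raised by V2530. Of the 7 fibroblast markers, 7 and 6 also had lower values with TYA-018 and Empagliflozin than with vehicle (medians -0.27 and -0.28; edgeR called 0, with 3 at an unadjusted p under 0.05 in each). Without V2530 the differences were -0.24 and -0.55, with adjusted p-values of 0.68 and 0.481. The Empagliflozin difference passed when V2526, V2527, V2532, V2571 or V2572 was left out (adjusted p of 0.0284, 0.0295, 0.0338, 0.0472 and 0.0367), and with DESeq2 (0.0383), without the filter (0.0366) and with library size alone (0.0384). Against non_failing the drug groups were at 0.74 ± 0.28 (TYA-018, adjusted p = 0.105, 0.0389 without V2530 and 0.0348 in a fit of only these 2 groups) and 0.43 ± 0.28 (Empagliflozin, adjusted p = 0.429). Between the drugs, TYA-018 minus Empagliflozin was 0.31 ± 0.26 for Dkk3, 0.09 ± 0.23 for Myl4, 0.47 ± 0.65 for Myl7 and -0.39 ± 0.84 for Sln, with adjusted p-values of 0.673 to 0.939.

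With the filter, edgeR called Bmp10 and Dkk3 higher in HFpEF+Veh than in non_failing, where it called 3.15% of all 13765 genes (1.77% higher and 1.38% lower). Since Bmp10 reached the test only through the libraries in which it was high, the number of genes called is given as a description. Bmp10 was the 1 gene called in HFpEF+TYA-018 against non_failing (7.39% of all genes, 4% higher and 3.39% lower) and in HFpEF+SGLT2i against non_failing (6.45%, 3.46% higher and 2.99% lower). None was called in HFpEF+TYA-018 against HFpEF+Veh (1.93% of all genes, 0.835% higher and 1.1% lower) or HFpEF+SGLT2i against HFpEF+Veh (0.85%, 0.131% higher and 0.719% lower). At an unadjusted p under 0.05 there were 1 (Dkk3) and 2 (Bmp10 and Dkk3), where 2404 and 1383 of all genes were. DESeq2 called 0 in the first of these comparisons, of 402 over all genes, and Dkk3 in the second, of 115. Between the drugs edgeR called 0 of all genes, with 1821 at an unadjusted p under 0.05, while DESeq2 called 185. The median change of all genes was at most 0.011 in size in these fits.

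**Figure D2:**
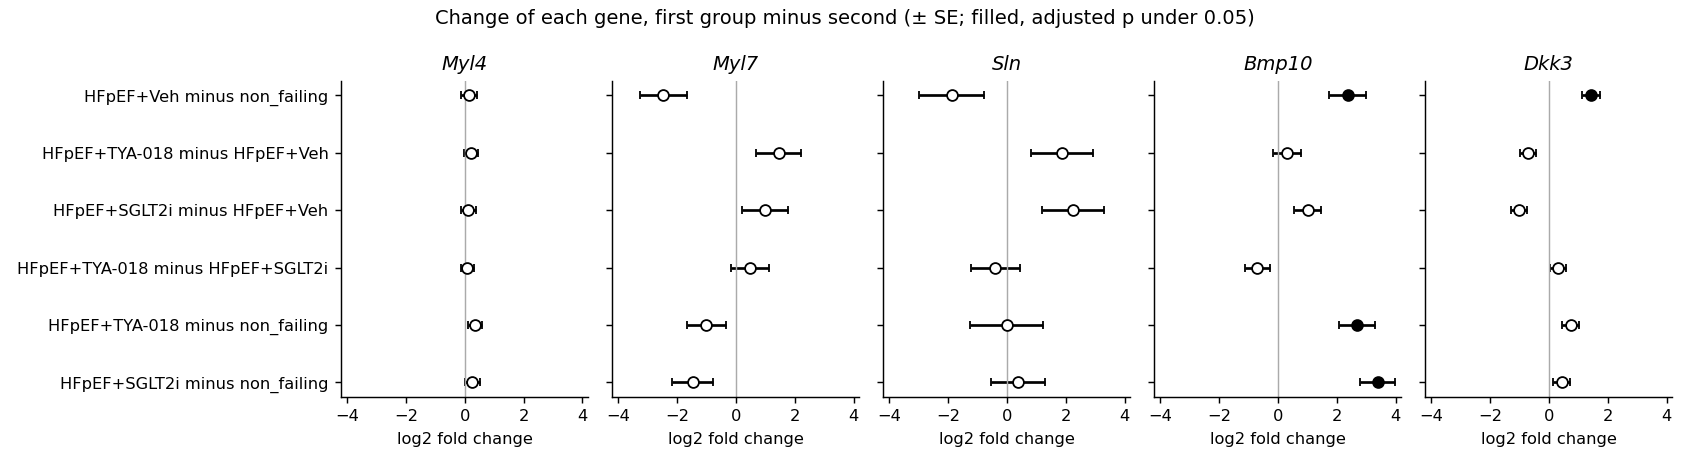
Fitted log2 fold change of each gene (horizontal axis, bars ± SE) in the 6 comparisons (rows); filled points passed an adjusted p of 0.05. The filled points are Bmp10 in the 3 comparisons with non_failing and Dkk3 in HFpEF+Veh minus non_failing; Sln values come from the fit without a filter.

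Sln rose and fell with Myl7 and with Myl4 from library to library within groups, and no such relation was found for Bmp10 or Dkk3. The relation was measured as Spearman's correlation of log2 CPM after subtracting each group's mean, over 38 libraries, with permutation p-values adjusted over the 10 pairs of genes. Spearman's correlation was 0.63 for Myl7 and Sln (adjusted p = 0.0006), 0.58 for Myl4 and Sln (adjusted p = 0.00095) and 0.40 for Myl4 and Myl7 (adjusted p = 0.0456). The last is the weakest: leaving out each library in turn, it passed in 12 of 38 repeats, and its adjusted p rose to 0.128 without V2547. Pearson's r was 0.55, 0.68 and 0.40 for these pairs, with adjusted permutation p-values of 0.00135, 0.0001 and 0.0437. Without the 2 libraries farthest from the median of the first gene, r was 0.49, 0.64 and 0.39. Within groups Spearman's correlation was positive for all 3 pairs, though uneven in size. For Myl4 and Sln it was 0.71 in non_failing, 0.51 in HFpEF+Veh, 0.50 in HFpEF+TYA-018 and 0.55 in HFpEF+SGLT2i. For Myl7 and Sln it was 0.42, 0.22, 0.70 and 0.69 in the same order of groups. For Myl4 and Myl7 it was 0.12, 0.17, 0.76 and 0.43, so this pair was close to 0 in the groups given vehicle.

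Pairs with Bmp10 had Spearman correlations of 0.04 with Myl4, 0.10 with Myl7, 0.24 with Sln and 0.18 with Dkk3. Dkk3 had 0.21 with Myl4, 0.26 with Myl7 and 0.14 with Sln. Adjusted permutation p-values of these 7 pairs were 0.289 to 0.81. Pearson's r for them ran from 0.09 to 0.27, with adjusted p of 0.262 to 0.578. Within HFpEF+SGLT2i, Spearman's correlation of Bmp10 was 0.45 with Myl4, 0.54 with Myl7 and 0.52 with Dkk3. That of Dkk3 with Myl7 was 0.48 there. In the other groups these pairs ran from -0.43 to 0.49, and values within groups were not tested. A p that misses the threshold does not show that the genes are unrelated, and with the low counts of Bmp10 and Sln a weak relation would not be seen.

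**Figure D3:**
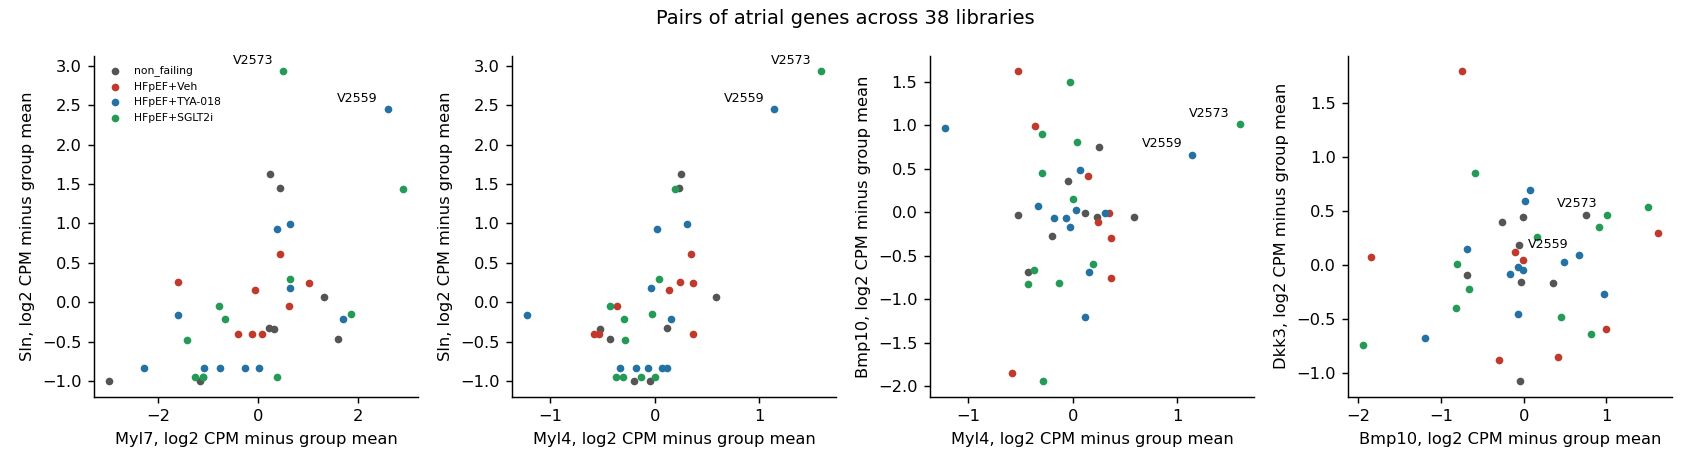
Log2 CPM minus the group mean for 4 pairs of genes, 1 point per library, coloured by group. Sln follows Myl7 (correlation 0.63) and Myl4 (correlation 0.58), with V2559 near the upper end of both. V2573 is high in Sln and Myl4 but only 0.505 above its group mean in Myl7. Bmp10 with Myl4 (correlation 0.04) and Dkk3 with Bmp10 (correlation 0.18) form no line.

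Myl4, Myl7 and Sln were high together in V2559 (HFpEF+TYA-018). In V2573 (HFpEF+SGLT2i) Myl4 and Sln were high, while Myl7 (0.403 TPM) was below V2571, V2572 and V2574 of that group. Without both libraries Spearman's correlation was 0.52 for Myl7 and Sln (adjusted permutation p = 0.0137), 0.47 for Myl4 and Sln (adjusted p = 0.0212) and 0.37 for Myl4 and Myl7 (adjusted p = 0.098). In V2559, Myl4 was 2.15 and Myl7 6.69 times the median of its group, while Bmp10 was 1.70 and Dkk3 1.04 times. In V2573, Myl4 was 3.82 and Myl7 3.42 times the group median, with Bmp10 at 1.82 and Dkk3 at 1.58. That Myl7 fold rests on 9 counts over a group median of 4. Sln held 21 counts in V2559 and 29 in V2573, over a group median of 1 count that is too low for a fold. Counting Sln by its CPM nonetheless, no other library had 3 of the genes at 2 times its group median or more; 20 libraries had 0, 10 had 1 and 6 had 2.

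The 2 libraries differed in the proportions of their excess over the group median. In V2559 the excess was 2.49 TPM of Myl4, 2.05 of Myl7 and 0.335 of Sln, so that Myl7 was 82.1% and Sln 13.4% of the Myl4 excess. In V2573 it was 5.15 TPM of Myl4, 0.285 of Myl7 and 0.596 of Sln, or 5.54% and 11.6%. The proportion of Sln to Myl4, which rests on 21 and 29 counts of Sln, was alike in both libraries, and that of Myl7 was not. The Myl7 proportions rest on 68 counts in V2559 and 9 in V2573. V2572 of HFpEF+SGLT2i had another pattern, with Myl7 at 20.6 and Myl4 at 1.36 times the group median. It also held 6 counts of Sln, and its Dkk3 was 1.99 times the group median, just under 2. In V2571 of the same group, Myl7 was 9.96, Bmp10 2.6 and Myl4 1.21 times the group median, with 1 count of Sln.

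Of 14 other atrial genes, 5 were above the group median in V2559 and 6 in V2573. Mybphl, a myosin-binding protein gene of the atrium, was the highest of its group in both, at 0.189 and 0.12 TPM, and Stard10 was the highest in V2559. The summed level of all 19 atrial markers, most of it Nppa, ranked 17 and 23 of 38 in these libraries. Whether atrial tissue entered these samples was not tested.

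**Figure D4:**
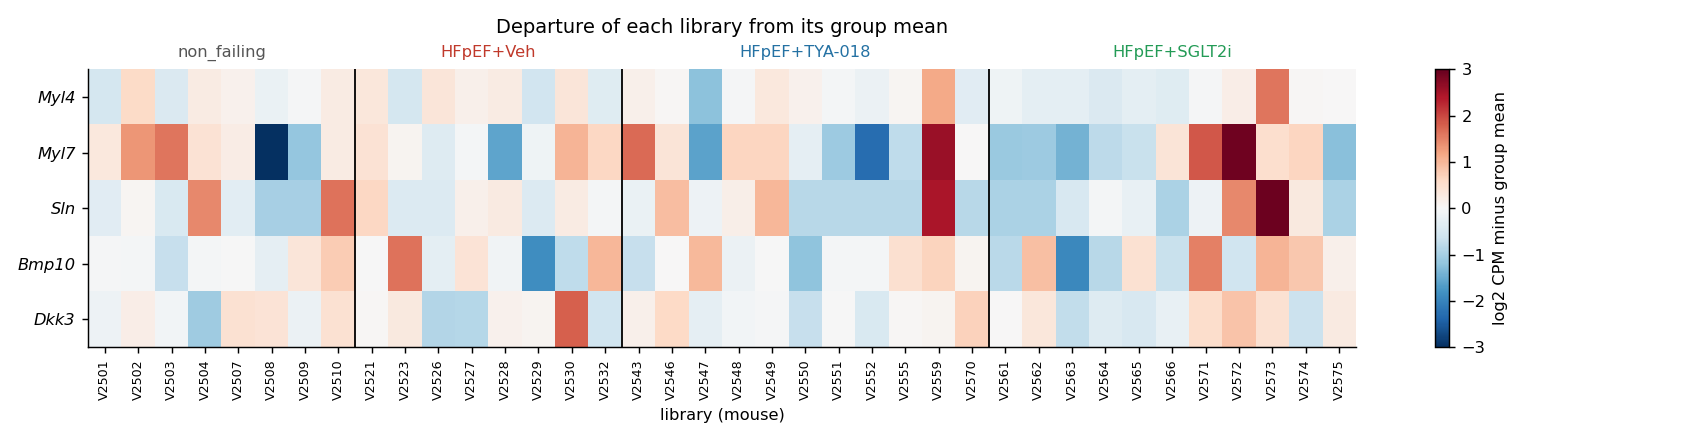
Log2 CPM of each gene minus its group mean (colour) in the 38 libraries, ordered by group and mouse number. V2559 lies far above its group mean in Myl4, Myl7 and Sln, and V2573 in Myl4 and Sln, with Myl7 above by 0.505. Other libraries, such as V2510 and V2572, are also above their group mean in Myl4, Myl7 and Sln. V2530 lies far above its group mean in Dkk3 and V2523 in Bmp10.

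Of 14 other atrial genes, 11 were tested. In HFpEF+Veh against non_failing 0 were called (edgeR; 3 at an unadjusted p under 0.05), with a median log2 change of -0.21 against 0.01 over all genes. The 1 gene called in any comparison was Tbx5, a transcription factor of atrial and conduction muscle that the ventricle also expresses. It was higher with TYA-018 than with vehicle (0.56 ± 0.13, adjusted p = 0.0204) and higher with Empagliflozin than with vehicle (0.64 ± 0.13, adjusted p = 0.00612). Its median was 3.02 TPM in non_failing, 2.07 in HFpEF+Veh, 2.98 in HFpEF+TYA-018 and 3.12 in HFpEF+SGLT2i. Each call of Tbx5 held in 37 of 38 fits that left out 1 library: the TYA-018 difference was 0.50 without V2530 (adjusted p = 0.059) and the Empagliflozin difference 0.66 without V2523 (adjusted p = 0.0721).

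Mybphl was too low for the filter but had the same order of groups as Myl7. Its lowest, median and highest values were 0.0666, 0.182 and 0.261 TPM in non_failing and 0, 0.0122 and 0.0602 TPM in HFpEF+Veh. These ranges did not overlap, but the gap from 0.0602 to 0.0666 TPM is narrow for a gene this low. In the fit without a filter it was lower by -3.12 ± 0.83 in HFpEF+Veh (adjusted p = 0.038) and by -2.33 ± 0.70 in HFpEF+SGLT2i (adjusted p = 0.0496) than in non_failing. With TYA-018 the difference was -1.64 ± 0.69 (adjusted p = 0.185). These calls lie close to the threshold and held in 28 and 12 of 38 fits that left out 1 library, with adjusted p-values up to 0.0731 (without V2530) and 0.0917 (without V2503). Mybphl is pointed out after its values were seen.

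The ventricular partners of the atrial light chains were slightly lower in HFpEF. Myl3 was lower than in non_failing by -0.41 ± 0.08 in HFpEF+Veh (adjusted p = 0.00256), -0.31 ± 0.08 in HFpEF+TYA-018 (adjusted p = 0.00814) and -0.34 ± 0.08 in HFpEF+SGLT2i (adjusted p = 0.00388). Myl2 was lower by -0.37 ± 0.09 in HFpEF+Veh (adjusted p = 0.0121) and by -0.37 ± 0.08 in HFpEF+SGLT2i (adjusted p = 0.00348), and in HFpEF+TYA-018 the difference was -0.20 ± 0.08 (adjusted p = 0.129). Myl1, the light chain of fast skeletal muscle, was higher in all 3, by 0.97, 0.88 and 0.77 (adjusted p-values of 1.92e-05, 1.57e-05 and 0.000138), and each of these calls held in 38 of 38 fits that left out 1 library. Of the 10 light chain genes and their enzymes tested, no others were called against non_failing. Genes of cardiomyocytes in general leaned the same way. In HFpEF+Veh against non_failing, 6 of 6 such markers had lower values (median log2 change -0.26) and 2 were called, Tnnt2 (-0.43 ± 0.09, adjusted p = 0.00459) and Tnni3 (-0.34 ± 0.08, adjusted p = 0.0129), which encode subunits of cardiac troponin. The same 2 were called lower in HFpEF+SGLT2i and 0 in HFpEF+TYA-018 (edgeR; 1 at an unadjusted p under 0.05). The part of cardiomyocyte content in the light chain differences was not tested.

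Among the calcium pump and its small regulators, Atp2a1, the fast skeletal muscle pump, was the 1 gene of 6 called. It was higher in HFpEF+Veh than in non_failing (3.09 ± 0.81, adjusted p = 0.0247), lower with TYA-018 than with vehicle (-3.33 ± 0.73, adjusted p = 0.00794) and lower with Empagliflozin than with vehicle (-3.17 ± 0.72, adjusted p = 0.0161). These differences rested on V2532, which had 12.4 TPM of Atp2a1 and the highest skeletal muscle marker level. The group medians were 0.164 TPM in non_failing, 0.182 in HFpEF+Veh, 0.197 in HFpEF+TYA-018 and 0.14 in HFpEF+SGLT2i. Without V2532 the differences turned to -0.81 (adjusted p = 0.206), 0.57 (adjusted p = 0.377) and 0.73 (adjusted p = 0.329). The first also lost its call without V2504 or V2508, at 2.97 and 2.98 (adjusted p of 0.0542 and 0.0525), and the last without V2523, at -3.35 (0.0721); there the size hardly moved.

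The receptors of Bmp10 were present at moderate to high levels while the ligand's transcript was scarce. Median Eng was 65.0 TPM in non_failing and 87.9 in HFpEF+Veh, and median Acvrl1 was 13.7 and 17.1 TPM; neither was called in any comparison. Of 25 genes of BMP9 and BMP10 signalling, 21 were tested. Bmp7, a ligand of another branch of the family, was lower in HFpEF+Veh (-1.01 ± 0.29, adjusted p = 0.0423) and in HFpEF+SGLT2i (-1.03 ± 0.26, adjusted p = 0.0129) than in non_failing. Smad6, an inhibitor that this signal induces, was higher in HFpEF+TYA-018 (0.86 ± 0.21, adjusted p = 0.00838) and in HFpEF+SGLT2i (0.70 ± 0.21, adjusted p = 0.0365). In HFpEF+TYA-018, Smad9 was also higher (0.49 ± 0.16, adjusted p = 0.0491) and Smad5 lower (-0.29 ± 0.07, adjusted p = 0.00621). Leaving out 1 library at a time, Smad5, Smad6 in HFpEF+TYA-018 and Bmp7 in HFpEF+SGLT2i stayed called in 38 of 38 fits. Bmp7 in HFpEF+Veh was called in 28 (adjusted p up to 0.103, without V2501), Smad6 in HFpEF+SGLT2i in 32 and Smad9 in 7 (up to 0.0986, without V2549). Without V2571 the Smad6 difference was 0.39 (adjusted p = 0.075). V2571 was the highest of its group for Smad6 (34.5 TPM), Eng (158 TPM) and Acvrl1 (21.5 TPM). Its summed endothelial markers were the highest of all libraries, 3830 TPM against a group median of 2170 TPM. Its summed markers of all cardiomyocytes were the lowest, at 8380 TPM. The part of cell content in these values was not tested. The median change of the BMP9 and BMP10 list was between -0.05 and 0.03 in the 6 comparisons.

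In the Dickkopf and Wnt list, 11 of 16 genes were tested. Frzb and Sfrp2, secreted Wnt antagonists, exceeded their non_failing level in HFpEF+Veh, by 0.86 ± 0.20 (adjusted p = 0.0104) and 1.48 ± 0.40 (adjusted p = 0.0319). V2530, the highest library for Dkk3 and for fibroblast markers, had 8.72 TPM of Sfrp2, against medians of 0.919 TPM in its group and 0.541 in non_failing. Without V2530 the Sfrp2 difference was 0.46 (adjusted p = 0.444) and that of Frzb 0.70 (adjusted p = 0.0437). Sfrp2 also lost its call without V2501, V2502, V2507, V2508, V2509 or V2510 of non_failing, with adjusted p-values of 0.0517 to 0.0635 and differences of 1.41 to 1.49. Nkd1, a Wnt feedback inhibitor, was lower in HFpEF+SGLT2i than in non_failing (-0.80 ± 0.24, adjusted p = 0.0339), a call that held in 31 of 38 fits that left out 1 library (adjusted p up to 0.111, without V2502). Between HFpEF groups 0 genes of the list were called (edgeR; 2 at an unadjusted p under 0.05 in each of the 3 comparisons).

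The most similar genes were found by ranking all tested genes by Spearman's correlation over the 38 libraries, after subtracting each group's mean. This is a description without a test, in which all points share libraries and depth. Dkk3 was most like Postn (correlation 0.87), the matrix protein periostin of activated fibroblasts, and Cilp (0.81), a matrix protein of cardiac fibroblasts, followed by Irak4 (0.79), Lbp (0.77) and Dbn1 (0.77). Postn had medians of 10.5 TPM in non_failing, 18.8 in HFpEF+Veh, 15.3 in HFpEF+TYA-018 and 13.7 in HFpEF+SGLT2i, the same order as Dkk3. V2530, the highest library for Dkk3, was also the highest of its group for Postn (44.1 TPM) and Cilp (16.7 TPM). Its summed fibroblast markers, 609 TPM, were the highest of all libraries, against group medians of 266 TPM in non_failing, 325 in HFpEF+Veh, 255 in HFpEF+TYA-018 and 278 in HFpEF+SGLT2i.

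**Figure D5:**
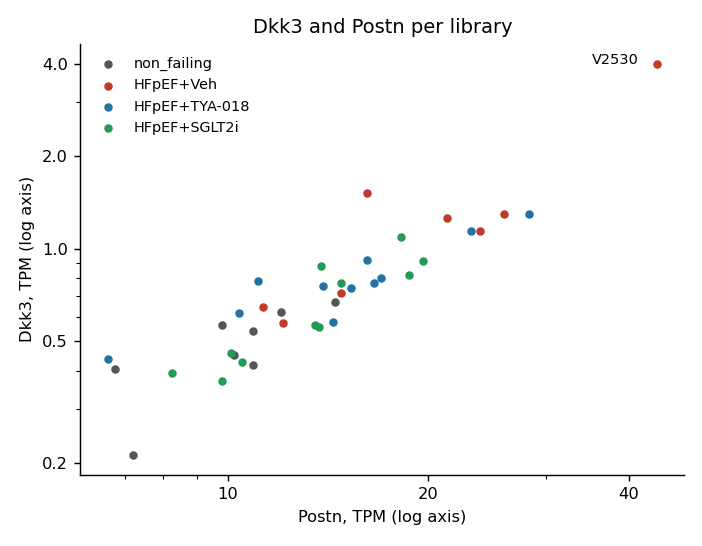
Dkk3 against Postn in TPM (both axes logarithmic), 1 point per library, coloured by group. The points follow 1 line across groups, and V2530 is at the upper end of both genes (4.01 and 44.1 TPM).

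Myl7 was most like Gpm6a (correlation 0.75), Lrrn4 (0.68), Adm (0.67), Igfbp5 (0.67) and Fmod (0.66). Gpm6a and Lrrn4 are genes of the mesothelium, the cell layer that covers the heart. Lrrn4 had medians of 0.153 TPM in non_failing and 0.0309 in HFpEF+Veh, and the highest library for Lrrn4, V2502, held 46 counts of Myl7. The summed mesothelial markers were highest in V2523 (49.8 TPM), most of it Krt19 (45.5 TPM), and that library held 5 counts of Myl7. V2559 had 5.22 TPM of these markers, near its group median of 4.5 TPM. That sum is mostly Wt1 and Krt19, while the medians of the mesothelial genes Upk3b, Upk1b and Lrrn4 were lower in each HFpEF group than in non_failing, as were those of Myl7. Of 7 markers, 5 were tested, with a median log2 change against non_failing of -1.77 in HFpEF+Veh, -1.92 in HFpEF+TYA-018 and -3.5 in HFpEF+SGLT2i, beside -2.46, -1.0 and -1.47 for Myl7. In HFpEF+Veh 3 of the 5 were at lower and 2 at higher values, and 0 were called (edgeR; 4 at an unadjusted p under 0.05). In HFpEF+SGLT2i 3 were called, Upk3b (-3.98 ± 0.90, adjusted p = 0.00448), Upk1b (-3.5 ± 0.85, adjusted p = 0.00838) and Lrrn4 (-3.5 ± 0.96, adjusted p = 0.0196). Without V2502 these were -2.99, -2.49 and -2.6, and only Upk3b passed (adjusted p of 0.0348, 0.0716 and 0.105). The part of mesothelium in the Myl7 values was not tested.

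For Sln, the most similar of all tested genes were Myl7 (correlation 0.62) and Myl4 (0.58) themselves, ahead of Nolc1 (0.55), Adm (0.52) and Tfe3 (0.50); these values set Sln against genes scaled after the filter and so differ slightly from the pairs above. Myl4 was most like Adam8 (0.67), Slc20a1 (0.65), Zbtb21, Ppp4r1 and B4galt3 (0.64 each), and Myl7 was number 1229 in its order. In the order for Myl7, Myl4 was number 128. Bmp10 was most like Ccr7 (0.60), Meig1 (0.57), Mcl1 (0.57), Akap8l (0.56) and Id4 (0.55). Myl4 and Myl7 were at 5602 and 4195 in the order for Bmp10.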

How the data were processed

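RNA was measured in 38 left ventricle libraries, 1 per mouse, grouped by sample title. The authors trimmed reads with fastp, quantified GRCm38 transcripts with salmon 1.6.0 and summed them to genes; the labels name another build, hg38, which is human. The deposited expected counts (estimated reads per gene) were rounded to whole numbers. The deposited TPM values and the effective lengths in bases, as the authors gave them, were used for levels. Unmapped columns numbered 0. Depth was 21.5 to 59.3 M counts (M stands for 1000000), and intervals cover counting error only.

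Counts were tested with the quasi-likelihood F test of edgeR 4.0.16 in R 4.3.3 (two-sided), in 1 model of the 4 groups with filterByExpr and TMM factors, for 6 comparisons. Benjamini-Hochberg adjustment ran over every gene in the fit, with calls at an adjusted p under 0.05. SE was taken as log2 fold change over the square root of F. P-values of the F test set a difference between groups against the spread between mice within groups, which at low counts is partly counting error. Sln was tested in a fit without the filter. Correlations used log2 CPM (prior count 2) and 100000 permutations. Alternatives were RLE scaling, library size alone, DESeq2 1.42.0, other filters, limma 3.58.1 on log2(TPM + 1) and log2(TPM + 0.1), an effective length offset, only the 2 groups compared and leaving out each library. Leaving out V2559 with V2573, or V2523 with V2532, was added after seeing the data. So was leaving out each library for the other called genes whose repeats are given above. Lum, Pdgfra, Tnnt2 and Tnni3 had no such repeats. The genes named are the 5 atrial genes, the 5 most similar genes to each, and the called genes of fixed lists with a few abundant ones. The genes and lists were chosen with earlier results of these data known. The test was tried on simulated counts for HFpEF+Veh minus non_failing, with 13655 genes in the fit. It recovered 68% of 50 genes raised 2-fold and 80% of 50 lowered to 0.5 times. It also recovered 70% of 50 raised 1.5-fold and 66% of 47 lowered to 0.667 times. The changed genes were drawn at random from all genes that passed the filter. These shares therefore do not speak for Sln, which failed the filter, or for genes as low as Bmp10.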

Additional observations from a re-analysis of the deposited data

Results flagged for a closer look

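Dkk3 in HFpEF+Veh stood out because of 1 library: V2530 had 4.01 TPM, against a group median of 1.2 TPM, a larger gap than Dixon's test allows at the 95% level. The test was made for 10 combinations of gene and group, in the groups of 8 libraries, and chance flags about 1 in 20. The same library had the highest summed fibroblast markers, 609 TPM; their part in the value was not tested.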

How the results depend on the processing

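Alternatives covered scaling, filters, other tests and leaving out libraries. The number of the 5 genes called in HFpEF+Veh minus non_failing was 2, and 1 with a mean CPM of at least 1, with limma on log2(TPM + 1) or log2(TPM + 0.1), with only the 2 groups compared and without V2523 and V2532 together, and 3 with DESeq2, which also called Myl7 (adjusted p = 0.0378) and called 599 of all genes against 433 with edgeR; leaving out 1 library gave 1 to 2. In HFpEF+SGLT2i minus HFpEF+Veh it was 0, and 1 with library size alone, DESeq2 or no filter on low counts (0 to 1 leaving out 1 library). In HFpEF+TYA-018 minus non_failing it was 1, and 0 with a mean CPM of at least 1 or limma on log2(TPM + 1) (1 to 2 leaving out 1 library). In HFpEF+SGLT2i minus non_failing it was 1, and 0 with a mean CPM of at least 1 or only the 2 groups compared (1 to 2). A mean CPM of at least 1, and the fit of only 2 groups, left Bmp10 untested in comparisons with non_failing, and log2(TPM + 1) compresses its low levels; for other changes the cause was not tested. Among the 5 genes, directions that turned belonged to differences that passed no test; Atp2a1, called in 3 comparisons, turned in all 3 without V2532 (-0.81, 0.57 and 0.73). Myl4 in HFpEF+SGLT2i minus HFpEF+Veh was -0.09 and -0.11 with limma (pseudocounts 1 and 0.1), -0.17 without V2559 and V2573, -0.02 without V2523 and V2532, and -0.17 to 0.17 leaving out 1 library. Without V2559 and V2573, Myl7 in HFpEF+TYA-018 minus HFpEF+SGLT2i was -0.13, Myl4 in HFpEF+SGLT2i minus non_failing -0.04 and Sln in the latter -0.91. Without V2523 and V2532, Sln in HFpEF+TYA-018 minus non_failing was 0.004. Leaving out 1 library, HFpEF+TYA-018 minus HFpEF+SGLT2i ran from -0.08 to 0.38 for Myl4, -0.11 to 1.25 for Myl7 and -1.39 to 0.9 for Sln; HFpEF+SGLT2i minus non_failing ran from -0.03 to 0.37 for Myl4 and -0.92 to 0.95 for Sln; HFpEF+TYA-018 minus non_failing ran from -1.01 to 0.56 for Sln. Spearman's correlation of Myl7 with Bmp10 was -0.14 without subtracting group means, -0.05 without V2559 and V2573, and -0.0019 to 0.14 leaving out 1 library; that of Myl4 with Bmp10 was -0.13 without V2559 and V2573 and -0.08 to 0.15 leaving out 1 library. Library size alone moved the median change of all genes to -0.137 in HFpEF+TYA-018 minus HFpEF+Veh. Depth limits Sln and Bmp10, whose group medians were 1 to 12 counts. No paired analysis was possible because mouse numbers differ in every group.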
